A study of Arabidopsis thaliana with 18 samples.

Results

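The 7 genes described here open the phenylpropanoid pathway of Arabidopsis thaliana, and were chosen by locus as PAL1 (AT2G37040), PAL2 (AT3G53260), PAL4 (AT3G10340), C4H (AT2G30490), 4CL1 (AT1G51680), 4CL2 (AT3G21240) and 4CL3 (AT1G65060). Each had 1 probe set on the Affymetrix ATH1 array, none of them named as shared between genes, out of 22810 probe sets in all and 22591 with a locus. Leaf RNA was measured on 18 arrays, 3 arrays lettered A, B and C in each of 6 groups. The plants were OE, in which the lines OEEV47-1 and OEEV47-2 that over-express the potato zinc finger gene StZFP2 were pooled according to the sample labels, or the wild type Col-0. The series design instead lists the OE lines apart. Leaves of each genotype were unwounded (control), or were taken 1 h or 6 h after wounding. The series asks how StZFP2 over-expression alters the wound response. The age of the plants and the promoter that drives StZFP2 are not given in the sources used here, and the level of the potato transgene was not analysed here.

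Phenylalanine ammonia-lyase (PAL) removes ammonia from phenylalanine to give cinnamate. Cinnamate 4-hydroxylase (C4H), a cytochrome P450 enzyme of the endoplasmic reticulum, turns cinnamate into p-coumarate, and 4-coumarate:CoA ligase (4CL) joins p-coumarate to coenzyme A. The resulting p-coumaroyl-CoA feeds lignin, sinapate esters and flavonoids, which in leaves stiffen vessel walls and screen ultraviolet light. Genes of these enzymes are widely known to respond to wounding, pathogens and light.

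Several arrays labelled OE resembled arrays with a different treatment label more than their own group, over all 14823 probe sets kept after a filter on low signals. The array labelled OE control A was nearest to OE control B (r = 0.983) and then to OE 6h C (r = 0.975), and the Col-0 array nearest to it was Col-0 6h B (r = 0.971). The array labelled OE control C was nearest to OE 1h A (r = 0.974), and the array labelled OE 1h C was nearest to OE 6h B (r = 0.978). Every Col-0 array was nearest to an array of its own group. The second nearest to Col-0 control A, B and C was OE 1h C each time (r = 0.948, 0.966 and 0.964). These correlations are across genes, which are not independent replicates. Groups were kept as labelled, and the wound response was read from the 9 Col-0 arrays. Comparisons by treatment label with OE below rest on labels that several OE arrays did not follow in these correlations. The reason was not tested. Averaged over the labelled treatments, the difference between OE and Col-0 does not depend on those labels, while its error does. The mesophyll genes RBCS1A (32719.9 to 48200.3 signal units) and CA1 (17077 to 27677) were bright on all 18 arrays, and the floral gene AP3 was under the 40th percentile of signals on all 18. The root gene PYK10 was at or above that percentile on 9 of 18, with up to 1112 signal units. The root gene SHR reached it on 15 of 18 and the floral gene AG on 3 of 18, with at most 139.6 and 115 signal units. Array medians were 127.5 to 161.1, and the ratio of 3′ to 5′ actin probe sets, a measure of RNA quality, was 23.4 to 45.0 in Col-0 at 1 h, against 16.2 to 23.9 in Col-0 controls. Separate plants behind the replicates are not stated in the labels. The p-values then reflect no more than the scatter of samples within groups, pooled over the groups in a fit and possibly technical.

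Most of the entry genes were lower in Col-0 leaves 6 h after wounding than in unwounded leaves. Of the 7, 6 fell at 6 h, by between 1.60-fold (4CL2) and 4.90-fold (4CL3), and PAL4 did not pass the test. Over all probe sets tested at 6 h against control, 13.6% were called lower and 15.4% higher. At 1 h 0 of the 7 passed (limma; 2 had an unadjusted p below 0.05), beside 5.84% of all probe sets called in either direction: the log2 differences lay between -0.51 (4CL3) and 0.42 (PAL2). A call is an adjusted p below 0.05 from limma, a linear model of log2 signal over all kept probe sets, with Benjamini-Hochberg adjustment. In a leaf sample, fewer cells of a type and less RNA per cell cannot be told apart.

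**Figure D1:**
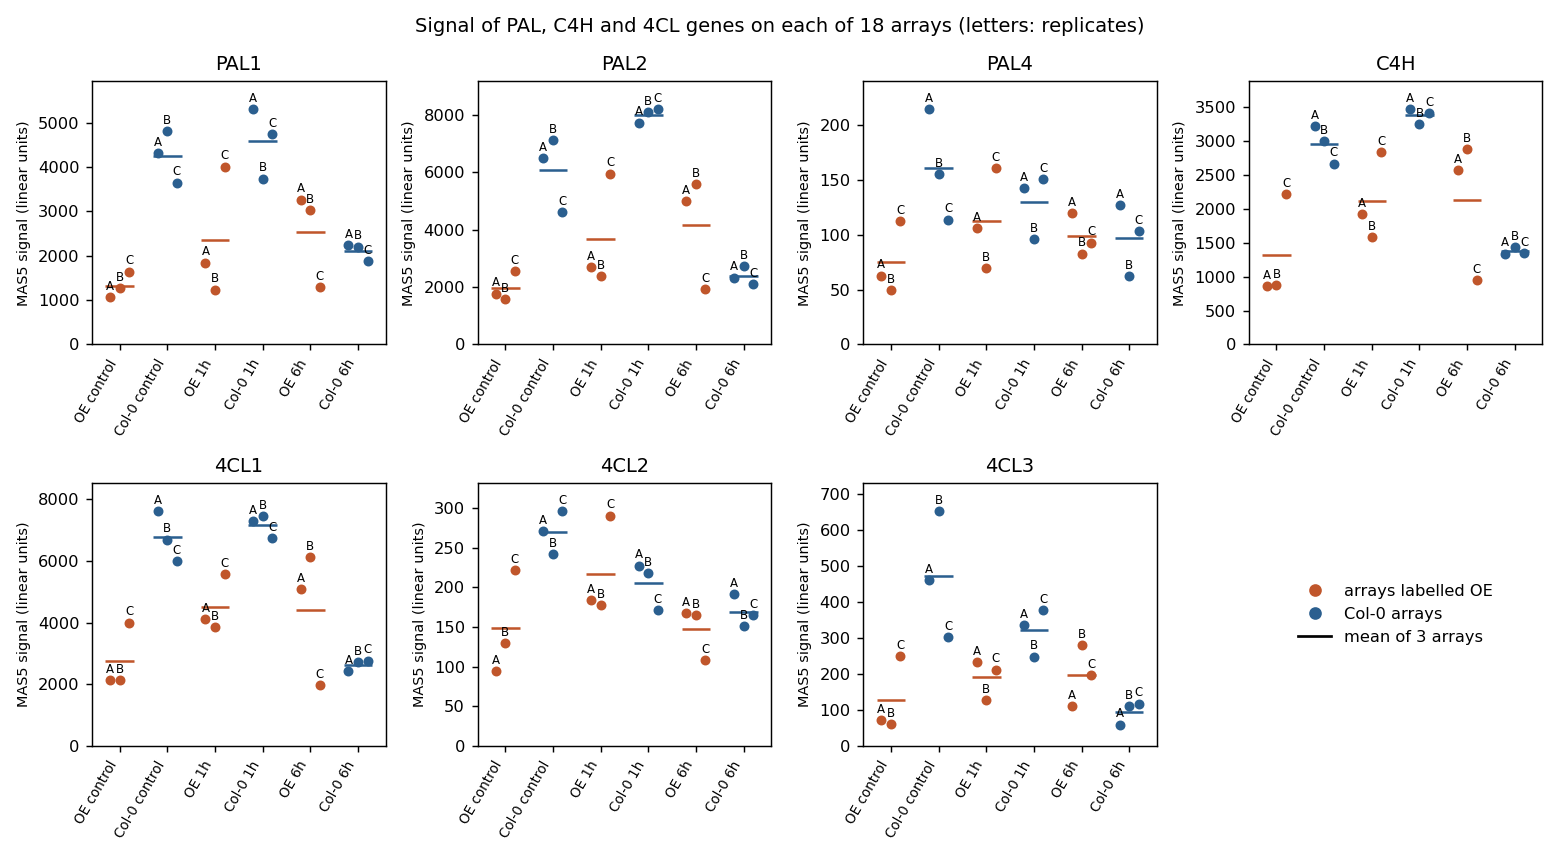
MAS5 signal (linear units, y axis from 0) of each gene on each of the 18 arrays, by labelled group on the x axis, arrays labelled OE in orange and Col-0 in blue. Letters name the replicates and bars are means of 3 arrays; in Col-0 the 6 h points of PAL1, PAL2, C4H, 4CL1, 4CL2 and 4CL3 all lie below the unwounded points, while the orange points of a group spread widely.

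The PAL genes start the pathway. PAL1 signals in Col-0 were 4318, 4808 and 3649 on the unwounded arrays A, B and C, 5303, 3741 and 4744 at 1 h and 2239.9, 2204 and 1876 at 6 h. PAL1 at 6 h lay below every unwounded array and fell by 2.02-fold (log2 change -1.01 ± 0.15, SE; limma adjusted p = 0.00045). Its 1 h arrays overlapped the unwounded ones (log2 change 0.10 ± 0.15, 95% interval -0.23 to 0.44; limma adjusted p = 0.755). PAL2, which acts with PAL1 in lignin and flavonoid formation, gave 6499, 7125 and 4614 on the unwounded arrays A, B and C, 7734, 8108 and 8201 at 1 h and 2334, 2732 and 2091 at 6 h. All 3 of its 1 h arrays lay above and all 3 of its 6 h arrays below the unwounded ones. The 1 h log2 difference of 0.42 ± 0.16 did not pass (unadjusted p = 0.0222, limma adjusted p = 0.158, n = 3 arrays a group), while PAL2 fell at 6 h by 2.52-fold (log2 change -1.33 ± 0.16; limma adjusted p = 8.01e-05). PAL4, a further isoform, was dim, with 14 of 18 arrays at or above their 40th percentile. Its Col-0 signals were 214, 155 and 114 on the unwounded arrays A, B and C, 142, 95.9 and 150.2 at 1 h and 127, 62.0 and 103 at 6 h, and the groups overlapped. The 1 h difference of PAL4 was -0.29 ± 0.31 (limma adjusted p = 0.648). The 6 h difference of PAL4 was -0.74 ± 0.31 (95% interval -1.43 to -0.06; limma adjusted p = 0.0996), and its 6 h arrays spread 2.04-fold. With the array Col-0 control C left out, PAL4 passed too and the count became 7.

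C4H, the P450 step after PAL, gave 3222, 3001 and 2669.9 on the unwounded arrays A, B and C, 3471, 3254 and 3415 at 1 h and 1341, 1437 and 1349.6 at 6 h. C4H was tight within each Col-0 group, with its 1 h arrays just above and its 6 h arrays far below the unwounded ones. It fell 2.15-fold at 6 h (log2 change -1.10 ± 0.11; limma adjusted p = 2.77e-05), and its 1 h difference was 0.19 ± 0.11 (limma adjusted p = 0.368). ATR2 (AT4G30210), a reductase that passes electrons to P450 enzymes such as C4H, averaged 2182 ± 282 signal units before wounding, 3289 ± 240.3 at 1 h and 939 ± 36.3 at 6 h (SD, n = 3 each). ATR2 rose at 1 h, with a log2 change of 0.60 ± 0.13 (limma adjusted p = 0.0179 with the 9 Col-0 arrays, 0.384 with all 18) and was lower at 6 h than in unwounded leaves (-1.21 ± 0.13; limma adjusted p = 3.29e-05). The other reductase, ATR1, did not pass at either time (0.16 at 6 h; limma adjusted p = 0.396).

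The ligases activate p-coumarate for all branches. 4CL1, a ligase known from lignin formation, gave 7609, 6679.7 and 5975 on the unwounded arrays A, B and C, 7287, 7431 and 6739 at 1 h and 2418, 2719 and 2766 at 6 h. Its 1 h arrays lay among the unwounded ones (0.09 ± 0.12; limma adjusted p = 0.73), and at 6 h 4CL1 fell 2.56-fold (log2 change -1.35 ± 0.12; limma adjusted p = 9.75e-06). 4CL2, also tied to lignin, gave 271, 242 and 296 on the unwounded arrays A, B and C, 227, 218 and 172 at 1 h and 191, 151 and 165 at 6 h. The 1 h arrays of 4CL2 lay below every unwounded array, though that difference did not pass (-0.40 ± 0.17; unadjusted p = 0.04, limma adjusted p = 0.213). For PAL2, C4H and 4CL2 the share of all probe sets separated in this way at 1 h was not counted. 4CL2 fell 1.60-fold at 6 h (log2 change -0.67 ± 0.17; limma adjusted p = 0.0113). 4CL3, the ligase known chiefly from flavonoid formation, gave 461, 652 and 303 on the unwounded arrays A, B and C, 336, 248 and 378 at 1 h and 59.5, 110.0 and 118 at 6 h. 4CL3 fell 4.90-fold at 6 h (log2 change -2.29 ± 0.31; limma adjusted p = 0.000176), and 1 of its 6 h arrays was under the 40th percentile of its array. At 1 h its difference was -0.51 ± 0.31 (limma adjusted p = 0.376). The 95% interval of the 6 h change was -2.96 to -1.62 for 4CL3 and -1.05 to -0.30 for 4CL2, which do not overlap, and the difference between the genes was not tested. Of the 2 family members outside the chosen loci, 4CL5 (AT3G21230) fell, with a log2 change of -1.93 ± 0.18 (limma adjusted p = 1.2e-05) and PAL3 (AT5G04230) had 0.11 ± 0.25 (limma adjusted p = 0.781).

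**Figure D2:**
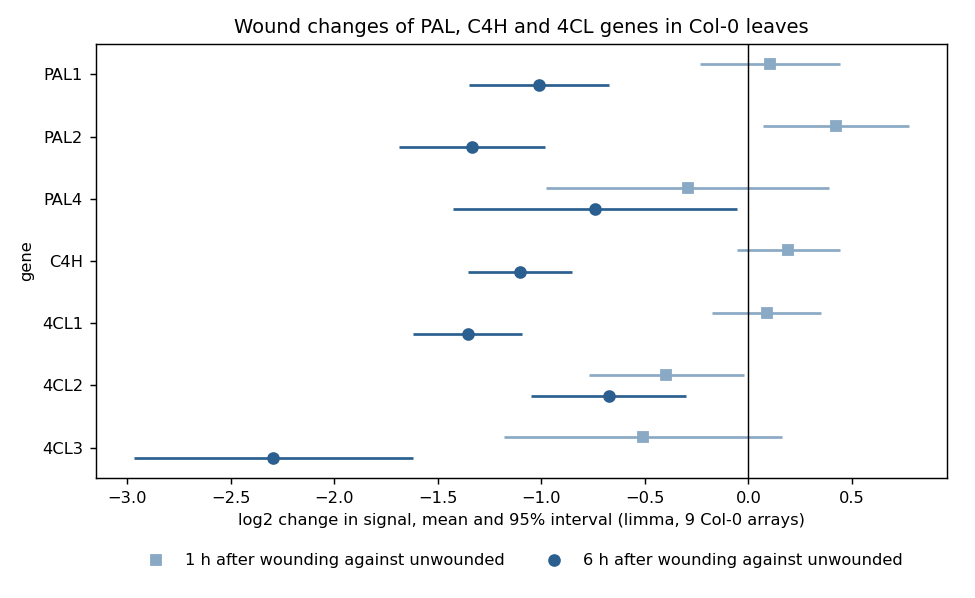
Log2 change in signal (x axis, with 95% intervals) of each gene (y axis) in Col-0 leaves at 1 h (squares) and 6 h (circles) against unwounded leaves, from limma on 9 arrays. The 6 h values run from -2.29 for 4CL3 to -0.67 for 4CL2; both times share the same unwounded arrays.

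The count at 6 h depended on the arrays used for the error. With all 18 arrays in the model, 3 of the 7 passed at 6 h against control, PAL2, 4CL1 and 4CL3 (limma adjusted p = 0.0264, 0.0178 and 0.0123), beside 6.89% of all probe sets called lower. In that model C4H had an adjusted p = 0.0568, PAL1 0.0702, 4CL2 0.103 and PAL4 0.177. At 1 h the 18-array model called 0.027% of all probe sets and 0 of the 7 (0 with an unadjusted p below 0.05). Without any model, 6 of the 7 had all 3 of their 6 h arrays below all 3 unwounded arrays, as did 18.9% of all probe sets.

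Between the wounded times, 5 of the 7 were lower at 6 h than at 1 h, beside 17.3% of all probe sets called lower and 25.4% higher. PAL2 was 3.38-fold lower at 6 h than at 1 h (log2 difference -1.76 ± 0.16; limma adjusted p = 4.46e-06), 4CL3 3.44-fold, 4CL1 2.72-fold, C4H 2.46-fold and PAL1 2.17-fold. The log2 difference was -0.45 ± 0.31 for PAL4 and -0.28 ± 0.17 for 4CL2, and neither passed (limma adjusted p = 0.274 and 0.213). The same 5 genes had no overlap between the times, as did 21.8% of all probe sets in that direction. All 5 passed with 18 arrays too, where 13.8% of all probe sets were called lower. The median of all probe sets was itself 0.13 higher on the log2 scale at 6 h than at 1 h, and with array medians subtracted the calls over all probe sets were 2485 higher and 3567 lower, against 3769 and 2559 as deposited; the 5 genes kept their calls there.

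No group of unwounded leaves at 6 h is among the labels, so wounding and time of day cannot be told apart in these changes. The morning clock genes LHY and CCA1 moved with them: LHY was 353 to 604 signal units at 6 h, against 5903 to 7025 in unwounded leaves (log2 change -3.77; limma adjusted p = 2.38e-07), and CCA1 changed by -1.84 (limma adjusted p = 5.24e-05). Summed signals of markers for several leaf cell types did not overlap between 6 h and unwounded leaves. The summed signal of both epidermis genes was 971 to 1513 at 6 h, against 1892 to 2139 in unwounded leaves, that of both guard cell genes was 894 to 1118 against 421 to 676, and that of both phloem genes was 4701 to 5119 against 3478 to 4273. The 5 xylem genes, markers of lignifying vessels, summed to 849 to 1489.9 at 6 h and 718 to 1519.7 in unwounded leaves. The part of these in the changes was not tested.

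Many genes that supply and use the pathway were also lower at 6 h, beside the 13.6% of all probe sets. Of the 46 genes of 8 lists kept after the filter on low signals, 22 fell and 4 rose against unwounded Col-0 leaves. With 18 arrays 18 fell and 1 rose. The 7 entry genes had a median log2 change of -1.10, beside 0.04 over all probe sets. Of 12 genes that make phenylalanine from the shikimate route 4 fell and 1 rose (median -0.17). ADT5 changed by -1.66 ± 0.20, ADT4 by -1.005 ± 0.19 and ADT1 by -0.71 ± 0.20 (limma adjusted p = 7.14e-05, 0.00168 and 0.0196); all 3 are arogenate dehydratases, which make phenylalanine itself. CM1, a chorismate mutase, changed by -1.04 ± 0.17, and DHS2, an enzyme that opens the shikimate route, rose by 0.47 ± 0.14 (limma adjusted p = 0.00073 and 0.0216). DHS2 did not pass with 18 arrays (limma adjusted p = 0.082).

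Downstream, 6 of 10 monolignol genes, which make the building blocks of lignin, fell (median -0.57). CAD4, an alcohol dehydrogenase of the last step of the branch, averaged 1161 ± 127 at 6 h, against 3196 ± 507 before wounding (SD, n = 3 each; log2 change -1.45 ± 0.14; limma adjusted p = 1.75e-05). CAD5, the other alcohol dehydrogenase of the list, was not among the 6. It averaged 4150 ± 294 at 6 h and 3398 ± 1582 before wounding (SD, n = 3 each). CCR2 and CCR1, cinnamoyl-CoA reductases, changed by -1.35 ± 0.30 and -0.72 ± 0.12, and HCT, a transferase that opens the branch, by -0.91 ± 0.13 (limma adjusted p = 0.00485, 0.000968 and 0.000253). CCR2 and HCT did not pass with 18 arrays (limma adjusted p = 0.165 and 0.0609). Of 4 sinapate ester genes with a probe set, 3 were kept after the filter. Of these 3, REF1, an aldehyde dehydrogenase (-0.90 ± 0.12), and UGT84A2, a sinapate glucosyltransferase (-1.004 ± 0.19), fell and SNG1, which forms sinapoylmalate, rose (0.81 ± 0.22; limma adjusted p = 0.000162, 0.00175 and 0.0158). Of 7 flavonoid genes 5 fell (median -2.27). F3H, a hydroxylase of the flavonol branch, averaged 159.8 ± 32.0 at 6 h and 2586 ± 229 in unwounded leaves, the lowest change at -4.03 ± 0.17 (limma adjusted p = 6.04e-08). CHIL, a chalcone isomerase-like protein, changed by -3.96 ± 0.45, FLS1, a flavonol synthase, by -2.57 ± 0.31 and CHS, the chalcone synthase that takes p-coumaroyl-CoA, by -2.27 ± 0.22 (limma adjusted p = 5.16e-05, 7.82e-05 and 1.93e-05), while DFR of the anthocyanin branch had -0.01 ± 0.63 (limma adjusted p = 0.997). Of the 3 CHIL arrays at 6 h 2 reached the 40th percentile, and without Col-0 6h A the CHIL change was -3.28 (limma adjusted p = 1.28e-05). DFR was dim, and reached that percentile on 2 of 3 unwounded Col-0 arrays and 1 of 3 at 6 h.

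Regulators went both ways. Of 9 MYB factors of the pathway with a probe set, 6 were kept after the filter. Of these 6, 3 fell: MYB7 (-1.57 ± 0.23), MYB32 (-0.77 ± 0.26) and MYB4 (-0.68 ± 0.14; limma adjusted p = 0.000309, 0.0421 and 0.00314), which are related factors, MYB4 being a known repressor of C4H. MYB32 did not pass with 18 arrays (limma adjusted p = 0.107). The Kelch F-box proteins mark PAL enzymes for breakdown, and 2 of the 4 genes rose at 6 h, beside 15.4% of all probe sets. KFB20 averaged 1183 ± 337 at 6 h and 362 ± 187 in unwounded leaves (1.80 ± 0.34), and KFB50 4609 ± 757 and 2826 ± 540.0 (0.71 ± 0.22; limma adjusted p = 0.00207 and 0.0294). Neither passed with 18 arrays (limma adjusted p = 0.0756 and 0.163), and with array medians subtracted 1 of the 4 was called. Against 1 h, 3 of the 4 were higher at 6 h, KFB20 by 2.97 ± 0.34, KFB50 by 1.33 ± 0.22 and KFB01 by 0.72 ± 0.26 (limma adjusted p = 2.91e-05, 0.000461 and 0.0444). The count was 2 of 4 with quantile normalization, array medians subtracted or all 18 arrays, where KFB01 did not pass (limma adjusted p = 0.136, 0.146 and 0.0525).

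In that comparison of 6 h with 1 h, 23 of the 46 list genes were lower and 6 higher, beside the 17.3% and 25.4% of all probe sets, and 20 and 3 with 18 arrays, where 13.8% were lower. CCR2 was lower by 5.34-fold at 6 h, 4CL5 by 5.49-fold and ATR2 by 3.50-fold, and MYB75, an activator of anthocyanin genes, was higher, at a log2 difference of 1.41 ± 0.45 (limma adjusted p = 4.57e-05, 8.15e-07, 7.24e-07 and 0.0227). MYB75 did not pass with 18 arrays (limma adjusted p = 0.0722). At 1 h against control, ATR2 alone of the 46 passed.

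**Figure D3:**
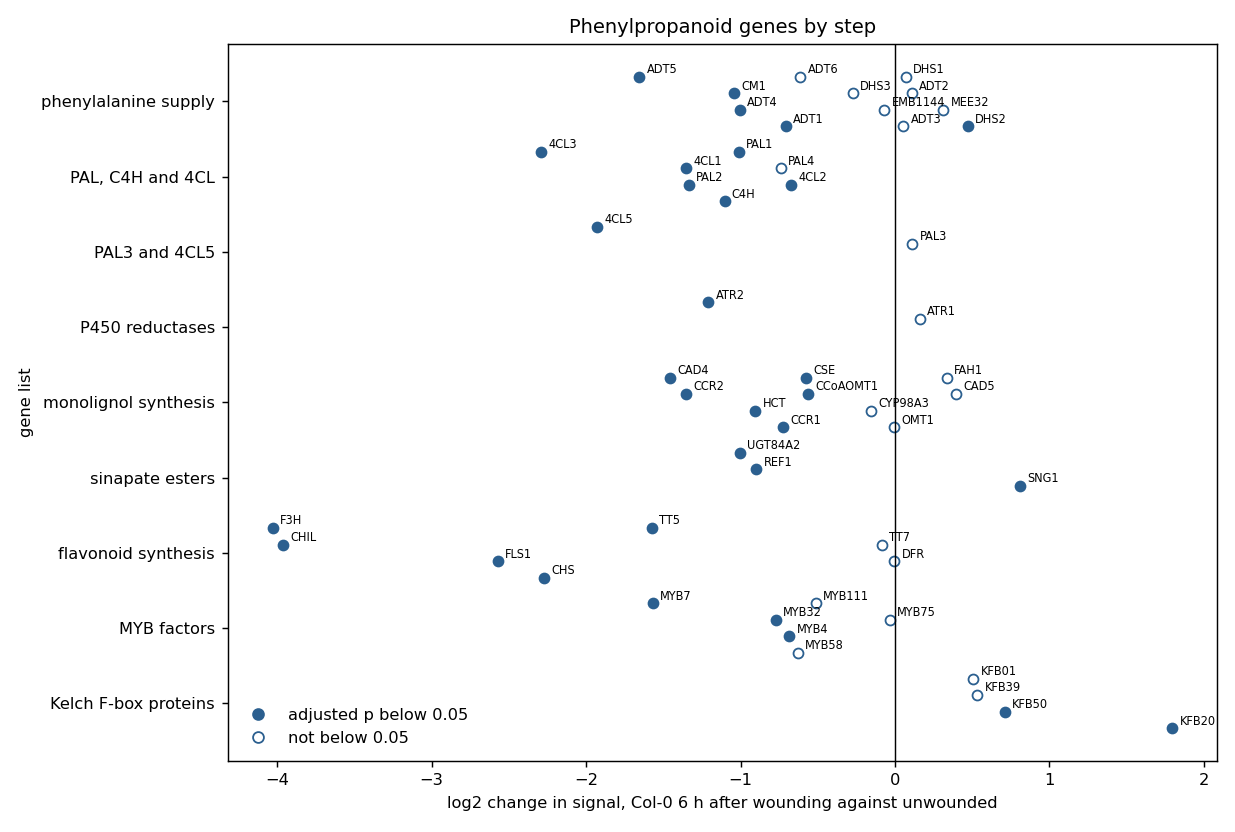
Log2 change in signal at 6 h against unwounded Col-0 leaves (x axis) for the entry genes and each list gene (rows by step of the pathway, points spread within a row for legibility); filled points have a limma adjusted p below 0.05. F3H at -4.03 and CHIL at -3.96 lie farthest left, and KFB20 at 1.80 farthest right.

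Over all 18 arrays the entry genes followed each other to different degrees. C4H and 4CL1 had a Pearson r of 0.98 on the log2 scale, PAL1 and PAL2 0.95, and PAL4 at most 0.76 with any other of the 7 and 4CL2 at most 0.78. Among 14196 candidate probe sets with 1 locus, 4CL1 was most like AT1G65870 (r = 0.98), PPT2 (0.98), a phosphoenolpyruvate transporter of plastids, and C4H (0.98), and C4H was most like 4CL1, PPT2 and AT1G65870. PAL1 was most like PAL2, FUC95A (0.94) and ABCB14 (0.94), and PAL2 most like AT5G48540 (0.97), AT3G22060 (0.96) and AT4G29950 (0.96). The nearest patterns were AT5G47540 (0.91), BRS1 (0.90) and AT5G35740 (0.89) for 4CL3, BDG1, MSRB6 and PIP1B (each 0.86) for 4CL2, and AT2G47820 (0.85), AT1G55660 (0.84) and RVE1 (0.83) for PAL4. These values describe arrays that share group means and scaling, and carry no test.

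The arrays labelled OE had a scatter within groups, highest over lowest signal, of 1.44-fold to 4.06-fold over the 7 genes, against 1.06-fold to 2.15-fold in Col-0. PAL1 signals were 1061, 1264 and 1645 on the arrays labelled OE control A, B and C, 1847, 1236 and 4009 on those labelled OE 1 h and 3266, 3036 and 1301 on those labelled OE 6 h. PAL1 on 8 of the 9 lay below every unwounded Col-0 array, and the array labelled OE 1h C lay among them. PAL2 signals were 1774, 1589 and 2552 on the arrays labelled OE control A, B and C, 2709, 2392 and 5956 on those labelled OE 1 h and 5007, 5591 and 1934 on those labelled OE 6 h. PAL4 signals were 62.6, 49.6 and 112 on the arrays labelled OE control A, B and C, 106, 69.8 and 160.3 on those labelled OE 1 h and 119.7, 82.8 and 92.8 on those labelled OE 6 h. For PAL2 the arrays labelled OE control A, B and C, OE 1h A and B and OE 6h C lay at or below the highest Col-0 6 h value.

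C4H signals were 862, 879 and 2214 on the arrays labelled OE control A, B and C, 1921, 1579 and 2839.6 on those labelled OE 1 h and 2575, 2886 and 953 on those labelled OE 6 h. 4CL1 signals were 2148, 2129.8 and 3995 on the arrays labelled OE control A, B and C, 4111, 3855 and 5566 on those labelled OE 1 h and 5069, 6126 and 1985 on those labelled OE 6 h. For both genes the arrays labelled OE control A, OE control B and OE 6h C were at or below the highest Col-0 6 h array, and the other 6 were above it. 4CL2 signals were 94.5, 129 and 222 on the arrays labelled OE control A, B and C, 184, 177 and 290.3 on those labelled OE 1 h and 167, 166 and 108 on those labelled OE 6 h. 4CL3 signals were 72.0, 61.3 and 249 on the arrays labelled OE control A, B and C, 233, 128 and 212 on those labelled OE 1 h and 112, 280.2 and 197 on those labelled OE 6 h. 4CL3 and PAL4 were dim, and in OE control each reached the 40th percentile on 1 of 3 arrays. 4CL3 was below every unwounded Col-0 array on all 9, and OE control A and B and OE 6h A were at or below its highest Col-0 6 h value.

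**Figure D4:**
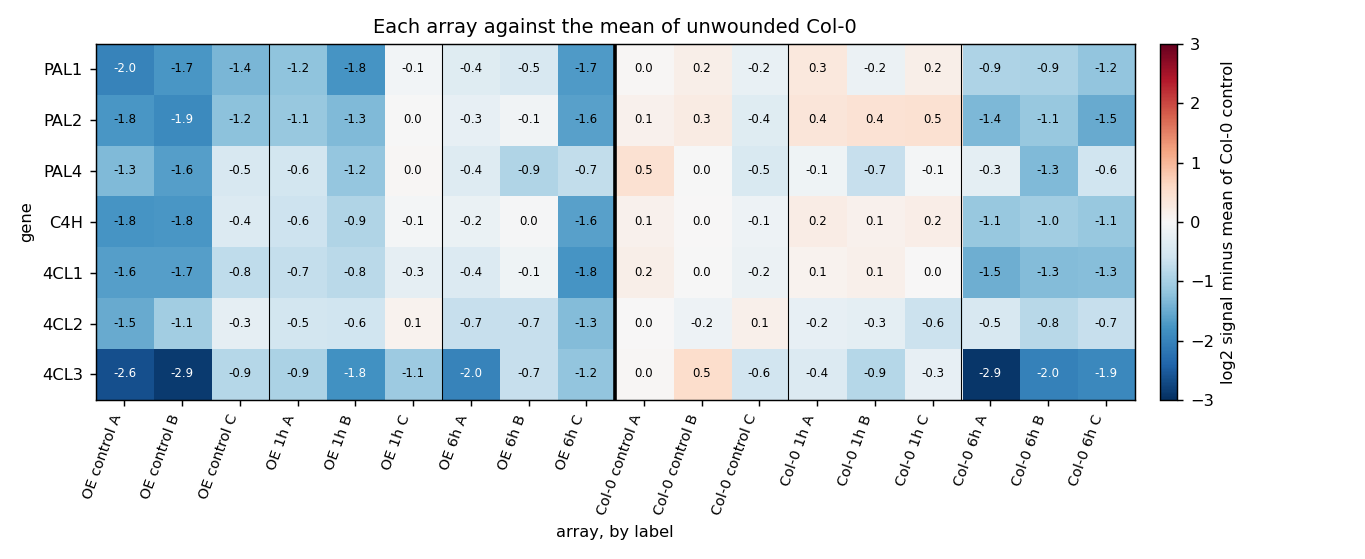
Log2 signal of each gene (rows) on each array (columns, by label, arrays labelled OE left of Col-0) minus the mean of unwounded Col-0. The columns OE control A, OE control B and OE 6h C are low for most genes, as are the Col-0 6 h columns, while OE 6h B is near 0 for C4H and 4CL1.

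Averaged over the labelled treatments, PAL1 was the one gene of the 7 called lower in OE, beside 1.83% of all probe sets. An unadjusted limma p below 0.05 was found for 6 of the 7, and for 3366 of the 14823 probe sets in either direction. PAL1 ranged from 1061 to 4009 signal units with a median of 1645 on the arrays labelled OE, and from 1876 to 5303 with a median of 3741 in Col-0, a log2 difference of -0.89 ± 0.21 (limma adjusted p = 0.0273). PAL2 had -0.73 ± 0.21 and did not pass (limma adjusted p = 0.0561), nor did 4CL3 (-0.63 ± 0.28), C4H (-0.52 ± 0.22), 4CL1 (-0.48 ± 0.19), PAL4 (-0.45 ± 0.22) and 4CL2 (-0.37 ± 0.16; limma adjusted p = 0.188, 0.172, 0.14, 0.228 and 0.18). The OE and Col-0 arrays overlapped for every one of the 7. The call rested on the arrays and the model: without the 3 arrays labelled OE and lettered C all 7 were called, PAL1 with a log2 difference of -0.96. In that fit 929 of the 14823 probe sets were called lower, against 271 in the main fit. With genotype as the one term 0 of the 7 passed, beside 0.533% of all probe sets, PAL1 having a limma adjusted p = 0.141 (2 of the 7 had an unadjusted p below 0.05). The PAL1 call was lost without any 1 of the arrays Col-0 control B, Col-0 1h C, Col-0 6h A, Col-0 6h B, OE control A, OE control B, OE 1h A or OE 1h B, and 5 of the 7 passed without OE control C. The count was 2 without OE 1h C, OE 6h A or OE 6h B. Calls over all probe sets with single arrays left out are not given here, so these counts have no share beside them.

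Of the 46 list genes 4 were lower in OE over all conditions and 0 higher, beside the 1.83% of all probe sets; they were named after their values were seen. CYP98A3, the hydroxylase of the monolignol branch, was 481 to 633 signal units on the arrays labelled OE and 618 to 871 in Col-0 (-0.43 ± 0.08). TT5, a chalcone isomerase, had -0.54 ± 0.10, EMB1144, a chorismate synthase, -0.41 ± 0.09 and DHS3 -0.32 ± 0.09 (limma adjusted p = 0.00673 for CYP98A3, 0.00965 for TT5, 0.0185 for EMB1144 and 0.0467 for DHS3). All 4 overlapped between the genotypes: TT5 was 289 to 492 on the arrays labelled OE and 278 to 990 in Col-0, EMB1144 959 to 1367 and 1305 to 1896, and DHS3, an enzyme that opens the shikimate route, 2544 to 4390 and 3408 to 4701. With genotype as the one term, 1 monolignol gene, 0 flavonoid genes and 1 phenylalanine supply gene were called, and with quantile normalization 1 phenylalanine supply gene in place of 2.

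By treatment label, 6 of the 7 were lower on the OE control arrays than on the Col-0 control arrays, beside 4.18% of all probe sets. The log2 difference was -2.12 ± 0.48 for 4CL3, -1.70 ± 0.37 for PAL1, -1.63 ± 0.36 for PAL2, -1.35 ± 0.32 for 4CL1, -1.31 ± 0.38 for C4H and -0.95 ± 0.28 for 4CL2 (limma adjusted p between 0.0217 and 0.0433), and PAL4 had -1.15 ± 0.37 (limma adjusted p = 0.059). All 7 had their 3 OE arrays below their 3 Col-0 arrays, as did 12.5% of all probe sets. Summed signals of cell type markers also did not overlap between these groups. The epidermis genes summed to 971 to 1527 on the OE control arrays, against 1892 to 2139 on the Col-0 control arrays, the guard cell genes to 973 to 1109 against 421 to 676, and the mesophyll genes to 49797 to 62418 against 63684 to 75878. Those of the xylem (1103 to 1287, against 718 to 1519.7) and phloem (3074 to 4942, against 3478 to 4273) overlapped, and the part of these markers in the differences was not tested. For 4CL3, 2 of the 3 OE control arrays were under the 40th percentile, and its difference was -1.75 without OE control B (limma adjusted p = 0.122), -1.86 without OE control A (0.115) and -2.76 without OE control C (0.0017). Leaving out OE control A, OE control B or Col-0 control B gave a count of 0. The count was 1 when Col-0 control A was left out, 3 for Col-0 control C and 7 for OE control C. At 1 h PAL2 alone was lower in OE (-1.25 ± 0.36; limma adjusted p = 0.0402), beside 4.47% of all probe sets. The PAL2 call was kept with array medians subtracted (-1.39; limma adjusted p = 0.0384), and lost with quantile normalization (-1.16; limma adjusted p = 0.0597). The median of all probe sets was 0.12 higher on the log2 scale in OE at 1 h. The PAL2 call was also lost without any 1 of OE 1h A or B or the 3 Col-0 1h arrays, and 2 of the 7 passed without OE 1h C. The log2 differences that did not pass at 1 h were -1.12 ± 0.37 for PAL1, -0.77 ± 0.48 for 4CL3, -0.72 ± 0.38 for C4H, -0.68 ± 0.32 for 4CL1, -0.26 ± 0.37 for PAL4 and 0.05 ± 0.28 for 4CL2 (limma adjusted p = 0.0606, 0.301, 0.217, 0.173, 0.681 and 0.926). At 6 h 0 of the 7 passed, beside 1.06% of all probe sets in either direction, 0 of the 7 had an unadjusted p below 0.05, and without OE 6h C 3 passed. The 6 h log2 differences were 0.998 ± 0.48 for 4CL3, 0.67 ± 0.36 for PAL2, 0.59 ± 0.32 for 4CL1, 0.48 ± 0.38 for C4H, 0.16 ± 0.37 for PAL1, 0.06 ± 0.37 for PAL4 and -0.22 ± 0.28 for 4CL2, with a limma adjusted p between 0.218 and 0.936.

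The wound change itself differed between OE and Col-0 at 6 h for 5 of the 7, beside 10.2% of all probe sets with a higher change in OE. The change in OE minus that in Col-0 was 3.12 ± 0.68 on the log2 scale for 4CL3, 2.30 ± 0.52 for PAL2, 1.94 ± 0.46 for 4CL1, 1.86 ± 0.52 for PAL1 and 1.80 ± 0.53 for C4H (limma adjusted p = 0.0101, 0.0109, 0.0123, 0.0211 and 0.0265). PAL4 had 1.21 ± 0.53 and 4CL2 0.72 ± 0.39, and neither passed (limma adjusted p = 0.103 and 0.185). Each value is the OE minus Col-0 difference at 6 h minus that in controls. At 6 h that difference was 0.16 for PAL1, 0.48 for C4H, 0.59 for 4CL1, 0.67 for PAL2 and 0.998 for 4CL3. In controls it was -1.70, -1.31, -1.35, -1.63 and -2.12 in the same order. Between the genotypes 0 of the 7 passed at 6 h, and 6 in controls. The comparison of wound changes uses OE control A, OE control B and OE 6h C, which resemble each other across labels. The count was 3 without OE control A, OE control B, OE 6h A or OE 6h B, 5 without OE 6h C and 7 without OE control C. The value of 4CL3 was 3.76 without OE control C (limma adjusted p = 0.00146). At 1 h 0 of the 7 and 0.0% of all probe sets passed, and 4CL2 alone had an unadjusted p below 0.05 (0.996 ± 0.39; limma adjusted p = 0.435). The 1 h values of the others were 1.35 ± 0.68 for 4CL3, 0.88 ± 0.53 for PAL4, 0.67 ± 0.46 for 4CL1, 0.59 ± 0.53 for C4H, 0.58 ± 0.52 for PAL1 and 0.39 ± 0.52 for PAL2, with a limma adjusted p between 0.507 and 0.813.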

How the data were processed

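Leaf RNA was measured on 18 one-colour Affymetrix ATH1 arrays. The deposited signal intensity is linear and comes from MAS5 (version not given), per the submitters' processing notes. With 2% of probe sets trimmed from each end, every array averaged 499.8, so no further scaling was applied. Another 90 columns of array values name no sample and were left out. The genome build is not given in the sources used here, and no sequences are shown.

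The members, gene lists and tests were chosen with earlier results of these data known, so the lists are no independent evidence of their direction. Signals were taken to log2, and a probe set was kept with a signal at or above an array's 40th percentile on 3 or more of 18 arrays, which left 14823 after 64 control probe sets were set aside. Contrasts within Col-0 were fitted on 9 arrays (6 residual degrees of freedom) and those with OE on 18 arrays (12 residual degrees of freedom) with limma 3.58.1 in R 4.3.3, 1 mean per group, a variance trend and Benjamini-Hochberg adjustment over all kept probe sets. Tests were two-sided, errors are SE unless given as SD, and folds are between means of log2 signal. The number of arrays limits the precision. The fit was tried on simulated data with independent noise on each array. Such data lack the likeness across labels seen among the OE arrays, so they do not test the OE fits in that respect.

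All 7 entry genes are described; of each list up to 4 called genes by size are named for the Col-0 comparisons, plus PAL3 and 4CL5, and further genes where said. Of 22591 probe sets with a locus 22091 matched a RefSeq locus by identifier. Similar patterns are the 3 highest Pearson r per gene.

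Other settings were a replicate block by letter, quantile normalization, array medians subtracted, log2 of signal plus 16, no filter, a 60th percentile filter, no variance trend, array weights, other sets of arrays, genotype alone and each array left out. The main fits used no pairing by replicate letter. Same-letter deviations in Col-0 correlated at -0.08 to 0.10 (median 0.08), and 0 of 9 pairs exceeded 0.1. The median was -0.03 for Col-0 pairs of other letters. Over 18 arrays 5 of 45 same-letter pairs exceeded 0.1, with a range of -0.60 to 0.24. Weak pairing by letter is not excluded by these values. Python 3.11.15 with matplotlib 3.10.9 drew the figures.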

Additional observations from a re-analysis of the deposited data

Results flagged for a closer look

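The wound change at 6 h differed between the arrays labelled OE and Col-0 for 5 of the 7 genes, by a test of the difference itself. Beside these, 10.2% of all probe sets had a higher change in OE. The log2 change in OE minus that in Col-0 was 1.86 for PAL1, 2.30 for PAL2, 1.80 for C4H, 1.94 for 4CL1 and 3.12 for 4CL3. Several of those OE arrays resemble arrays with a different treatment label. The count was 3 without any 1 of OE control A, OE control B, OE 6h A or OE 6h B. Compared directly between OE and Col-0, 0 of the 7 passed at 6 h, and 6 in controls.

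The same 5 genes differed between the 2 times after wounding in Col-0. Of all probe sets, 17.3% were called lower and 25.4% higher at 6 h than at 1 h. The log2 wound change at 6 h minus that at 1 h, which share the unwounded arrays, was -1.11 for PAL1, -1.76 for PAL2, -1.30 for C4H, -1.44 for 4CL1 and -1.78 for 4CL3.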

How the results depend on the processing

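In Col-0, 0 of the 7 entry genes passed at 1 h and 5 between 6 h and 1 h under all 16 alternatives of each. At 6 h against control the count of 6 became 3 with all 18 arrays, stayed at 6 in the other 9 settings and was 6 to 7 with single arrays left out. The 1 h log2 change of PAL1, 0.10, was -0.009 with array weights, -0.0025 with Col-0 control C left out and -0.0063 with Col-0 1h A left out (its single-array range was -0.0063 to 0.2454), with an adjusted p of 0.493 or more in every setting. For OE over all conditions the count of 1 became 7 with array weights, 0 with genotype alone, 7 without the 3 OE arrays lettered C, and 0 to 5 with single arrays left out. For OE control it was 6, 4 with the replicate block or no filter, 7 with array medians subtracted or array weights, 3 with the 6 compared arrays alone and 0 to 7 with single arrays left out. For OE 1 h the count of 1 became 0 with the replicate block, quantile normalization or no filter, 4 with array weights and 0 to 2 with single arrays left out. PAL2, the gene called there, lost its call in 9 of 15 alternatives. For OE 6 h the count of 0 became 4 with array weights and 0 to 3 with single arrays left out. The OE minus Col-0 wound change at 1 h was called for 0, for 3 with array weights and for 0 to 1 with single arrays left out, and at 6 h the count of 5 became 3 to 7 with single arrays left out. The cause of these differences was not tested. Pairing by replicate letter was not settled here. The replicate block left the counts at 6 for Col-0 6 h against control, 5 for 6 h against 1 h and 5 for the OE difference at 6 h. Over all probe sets, calls and their range over the settings with no array left out were, in Col-0, 866, against 4 (all 18 arrays) to 1304 (array weights) at 1 h and 4294, against 2351 (all 18 arrays) to 5052 (array weights) at 6 h. For OE they were 717, against 169 (genotype alone) to 3112 (array weights) over all conditions, 1546, against 643 (replicate block) to 6691 (array weights) in controls, 1645, against 924 (the 6 compared arrays alone) to 5099 (array weights) at 1 h and 157, against 7 (replicate block) to 5358 (array weights) at 6 h. For the wound change in OE minus Col-0 they were 0, and 2650 with array weights, at 1 h and 3460, against 2731 (replicate block) to 7755 (array weights) at 6 h. Of 416 alternative values of the 26 list genes called at 6 h against control, 30 lost the call and 0 changed sign. Dim signals limit PAL4 and 4CL3, which were at or above their arrays' 40th percentile on 14 and 15 of 18.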
